A study of Mus musculus with 88 samples.

Results

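Matrix metalloproteinases (Mmps) are zinc-dependent enzymes that cut collagens and other proteins outside the cell, and tissue inhibitors of metalloproteinases (Timps) bind their active sites and block them. In muscle, heart and other organs the matrix is made and turned over mainly by fibroblasts, with contributions from endothelial cells, macrophages and, during inflammation, neutrophils. The balance of the enzymes and their inhibitors is commonly studied in matrix remodelling, fibrosis and muscle regeneration. The 8 genes described here are Mmp2, Mmp3, Mmp9, Mmp14, Timp1, Timp2, Timp3 and Timp4. They were found by their exact gene symbol in the gene annotation of the count table, and all 8 of the 8 listed were present among its 24453 genes.

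The study compared mice with and without Cdh15, which encodes the adhesion protein M-cadherin of muscle precursor cells and fibres, across several organs. Polyadenylated RNA was sequenced from 10 male mice of the strain 100% C57BL/6NTac, of which 5 were Cdh15 KO (knockout) and 5 were WT (wild type). The animals were 65 to 85 days old and had fasted for 18 h, so both genotypes share the strain, the sex and the fast. The 9 tissues were EDL (extensor digitorum longus), gastrocnemius, soleus and tibialis, which are limb muscles, and heart, kidney, liver, lung and spleen. Each of the 18 groups of tissue and genotype held 5 mice, except WT kidney and WT spleen with 4 each, for 88 libraries. The labels give the knockout for the whole animal and say neither how the allele was made nor whether any cell type was targeted, and one animal is one replicate.

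The libraries held 8.206 to 25.14 M counts (M, mega), with a median of 19.02 M. Cdh15 was lower in KO than in WT in all 4 limb muscles, with log2 fold changes of -2.71 (EDL), -2.92 (gastrocnemius), -2.77 (soleus) and -3.41 (tibialis; edgeR adjusted p of 1.33e-07, 5.18e-09, 0.000161 and 8.95e-07), and it was too low for a test in the other 5 tissues. Marker genes matched the labelled tissues: the summed level of 6 skeletal fibre genes was at least 27080 RPKM in each limb muscle library and at most 1117 RPKM in the other tissues. The lists for heart muscle cells, hepatocytes, kidney tubules, lung epithelium and spleen lymphocytes likewise had their lowest value in the labelled organ above their highest value anywhere else. RPKM is the deposited level of a gene, in reads per kilobase of exon and per mega of counted reads, and allows genes of different length to be set side by side within a library.

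The genes lie on 8 chromosomes of mm10. Mmp2 (gelatinase A, a secreted enzyme that cuts denatured collagen and basement membrane collagen) spans chr8:92827328-92853420, Mmp9 (gelatinase B, of like substrates and stored in neutrophils) chr2:164948219-164955849, Mmp3 (stromelysin-1, which also activates other Mmps) chr9:7445822-7455974 and Mmp14 (a membrane-anchored collagenase that activates pro-Mmp2) chr14:54431604-54441258, all on the plus strand. Timp1 (a secreted inhibitor induced by injury and cytokines) spans chrX:20870166-20874737, Timp3 (an inhibitor bound to the matrix, which also blocks Adam proteases) chr10:86300412-86349505, both on the plus strand, while Timp2 (the inhibitor that also carries pro-Mmp2 to Mmp14) spans chr11:118301061-118355411 and Timp4 (an inhibitor first known from heart) chr6:115245616-115251849 on the minus strand. Values are summed over the exons of each gene, which number 5 in each Timp, 10 in Mmp3 and Mmp14 and 13 in Mmp2 and Mmp9. Timp1, Timp3 and Timp4 each lie inside a synapsin gene on the opposite strand, Syn1, Syn3 and Syn2 in that order, and the sources used here do not say if strand was used in counting. BC100451 (chr11:118332360-118342534) lies within Timp2 on the same strand, where counting by strand would not separate them. The mean WT levels of the synapsin genes were at most 2.77 RPKM (Syn2 in lung), so reads of Syn2 could matter to the low Timp4 level of lung, 2.52 RPKM, and less to its level in heart, where Syn2 was at 1.42 and Timp4 at 23.7 RPKM. In kidney mean Syn2 was above mean Timp4, at 1.40 against 0.278 RPKM in WT and 1.51 against 0.448 RPKM in KO. Reads of Syn2 could matter there as well.

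Promoters are shown for the members that the tissue results below turn on. Those of Mmp3 and Timp3 differ plainly in base composition, and no relation of base composition to tissue levels was tested. The RefSeq promoter table (GRCm38.p6) held 6 of the 8 members, not Mmp2 and Mmp9. The 120 bases just before the RefSeq start are given 5′ to 3′ on the gene's strand. Capitals mark, on either strand, 3 motifs that do not overlap each other here. The AP-1 motif was searched as TGANTCA. The TATA motif was searched as TATAAA. The GC box was searched as GGGCGG and appears as its complement where it lies on the other strand.
Mmp3, chr9:7445702-7445821, plus strand: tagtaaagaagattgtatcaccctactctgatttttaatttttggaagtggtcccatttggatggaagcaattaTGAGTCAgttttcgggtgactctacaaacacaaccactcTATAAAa
Timp3, chr10:86300292-86300411, plus strand: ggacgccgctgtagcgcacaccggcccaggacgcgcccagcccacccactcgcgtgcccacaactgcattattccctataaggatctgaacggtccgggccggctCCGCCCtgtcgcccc
Timp2, chr11:118355412-118355531, minus strand: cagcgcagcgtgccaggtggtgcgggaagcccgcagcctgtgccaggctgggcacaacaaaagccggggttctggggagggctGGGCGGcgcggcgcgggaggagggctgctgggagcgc
Timp4, chr6:115252206-115252325, minus strand: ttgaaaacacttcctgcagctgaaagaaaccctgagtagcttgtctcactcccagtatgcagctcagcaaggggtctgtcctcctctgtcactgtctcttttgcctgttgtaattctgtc
Over the 250 bases before the start, Mmp3 had 1 CpG, and 7.87% of the 32851 promoters in the table had fewer. Its AP-1 motif began 46 bases before the start and its TATA motif 7 bases before it. Timp2 had 21 CpG and Timp3 had 18, against a median of 6, and each held 1 GC box. Timp4 had 2 CpG and none of the 3 motifs. Its window reaches down to chr6:115252206, while the counted gene starts at chr6:115251849 on the minus strand. The start used for this promoter therefore differs from that of the counted gene. Mmp14 held 10 CpG with 2 GC boxes, and Timp1 held 6 CpG with 1 GC box. Of all promoters of this length, 6.75% held the AP-1 motif, 12.4% the TATA motif and 32.7% a GC box. These matches describe the letters in the window only.

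Among the proteases, Mmp2 had RPKM ranges that ran into each other over muscle, heart and lung. Its mean level in WT mice was 26.5 ± 5.22 RPKM (SD, n = 5) in lung, 24.2 ± 5.17 in EDL, 23.8 ± 8.50 in tibialis, 22.1 ± 3.39 in soleus, 16.8 ± 1.68 in gastrocnemius and 16.3 ± 1.95 in heart. Each of these 6 overlapped with its neighbour in that order. Below them, WT spleen stood at 8.03 ± 1.64 RPKM (n = 4), kidney at 1.22 ± 0.178 (n = 4) and liver at 0.811 ± 0.271 (n = 5), and the ranges of heart and spleen and of spleen and kidney did not overlap. In KO mice the order was led by soleus (26.1 ± 5.48 RPKM), which overlapped with EDL.

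Mmp14 was the most evenly spread of the 4 proteases and the leading one in liver, kidney and spleen. Its mean WT level ran from 3.59 ± 0.477 RPKM in kidney (n = 4) to 20.9 ± 2.15 in lung (n = 5), with 15.7 ± 1.97 in spleen (n = 4), 11.9 ± 0.919 in liver (n = 5) and 5.37 to 7.96 in the limb muscles and heart. Mmp14 was the only one of the 4 above 1 RPKM on average in WT liver.

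Mmp3 was by contrast found mostly in lung. The WT lung libraries held 28.6, 29.6, 36.2, 37.1 and 37.9 RPKM, and the KO lung libraries held 22.1, 26.8, 27.0, 34.4 and 40.4 RPKM. Heart followed, with 3.64, 4.26, 4.27, 5.19 and 5.49 RPKM in WT and 4.30, 4.76, 5.14, 5.81 and 5.87 RPKM in KO. Lung and heart did not overlap in either genotype, and heart did not overlap with the next tissue, spleen. The limb muscles were low, at a mean of 1.0 ± 0.401 RPKM in WT tibialis and 0.167 ± 0.112 RPKM in WT soleus, where each library held only 1 to 10 reads.

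Mmp9 was found in spleen and lung. The 4 WT spleen libraries held 5.49, 6.82, 8.37 and 10.9 RPKM, the 5 KO spleen libraries 9.43, 9.46, 10.5, 10.5 and 10.6 RPKM, and WT lung 3.12, 4.47, 5.38, 6.18 and 6.67 RPKM. WT spleen and WT lung overlapped, and the KO spleen libraries all lay above the KO lung libraries. In the other 7 tissues the group means of both genotypes were below 0.53 RPKM.

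Among the inhibitors, Timp3 had the highest levels of the 8 genes. Its WT kidney libraries held 422, 446, 475 and 491 RPKM, and the KO kidney libraries held 384, 459, 481, 523 and 559 RPKM. WT lung followed at 314 ± 33.2 RPKM (SD, n = 5) and WT heart at 61.6 ± 2.08 (n = 5). Kidney, lung and heart did not overlap with each other in either genotype. By its mean WT level Timp3 ranked 105 of the 24453 genes in kidney and 214 in lung. The other tissues held 24.5 to 35.0 RPKM, apart from liver with 4.55 ± 0.512.

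Timp2 was highest in lung, at 132 ± 10 RPKM in WT (n = 5), and did not overlap there with the next tissue. Spleen (47.8 ± 3.11, n = 4) and the limb muscles (32.8 to 45.9) came next, and then heart with 26.2 ± 1.68 (n = 5). Liver was lowest, at 2.39 ± 0.502 RPKM (n = 5).

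Timp4 was a gene of striated muscle in these data. WT heart held 16.8, 18.9, 23.3, 29.0 and 30.4 RPKM, and WT soleus 9.87, 12.1, 14.3, 16.2 and 17.4 RPKM. The lowest heart library lay within the soleus range, and the other 4 lay above it. Tibialis (10.6 ± 3.61), gastrocnemius (6.91 ± 2.27) and EDL (6.43 ± 3.15) followed with overlapping ranges, each with n = 5 in WT. Of WT spleen libraries all 4 had 0 Timp4 reads, which allows up to 3 reads in each, and the 5 KO spleen libraries had at most 1 read.

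Timp1 was the lowest of the 4 inhibitors in heart and the limb muscles and varied widely between mice in some tissues. WT lung held 8.96, 9.93, 10.3, 14.5 and 21.5 RPKM, WT spleen 3.09 ± 0.161 (n = 4) and WT heart 2.72 ± 0.276 (n = 5). In WT tibialis it held 0.814, 1.19, 1.498, 3.39 and 8.01 RPKM. The highest of these, from mouse 3793553, was above all 5 KO tibialis libraries, of which the highest held 2.78 RPKM and the lowest 0 reads.

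**Figure D1:**
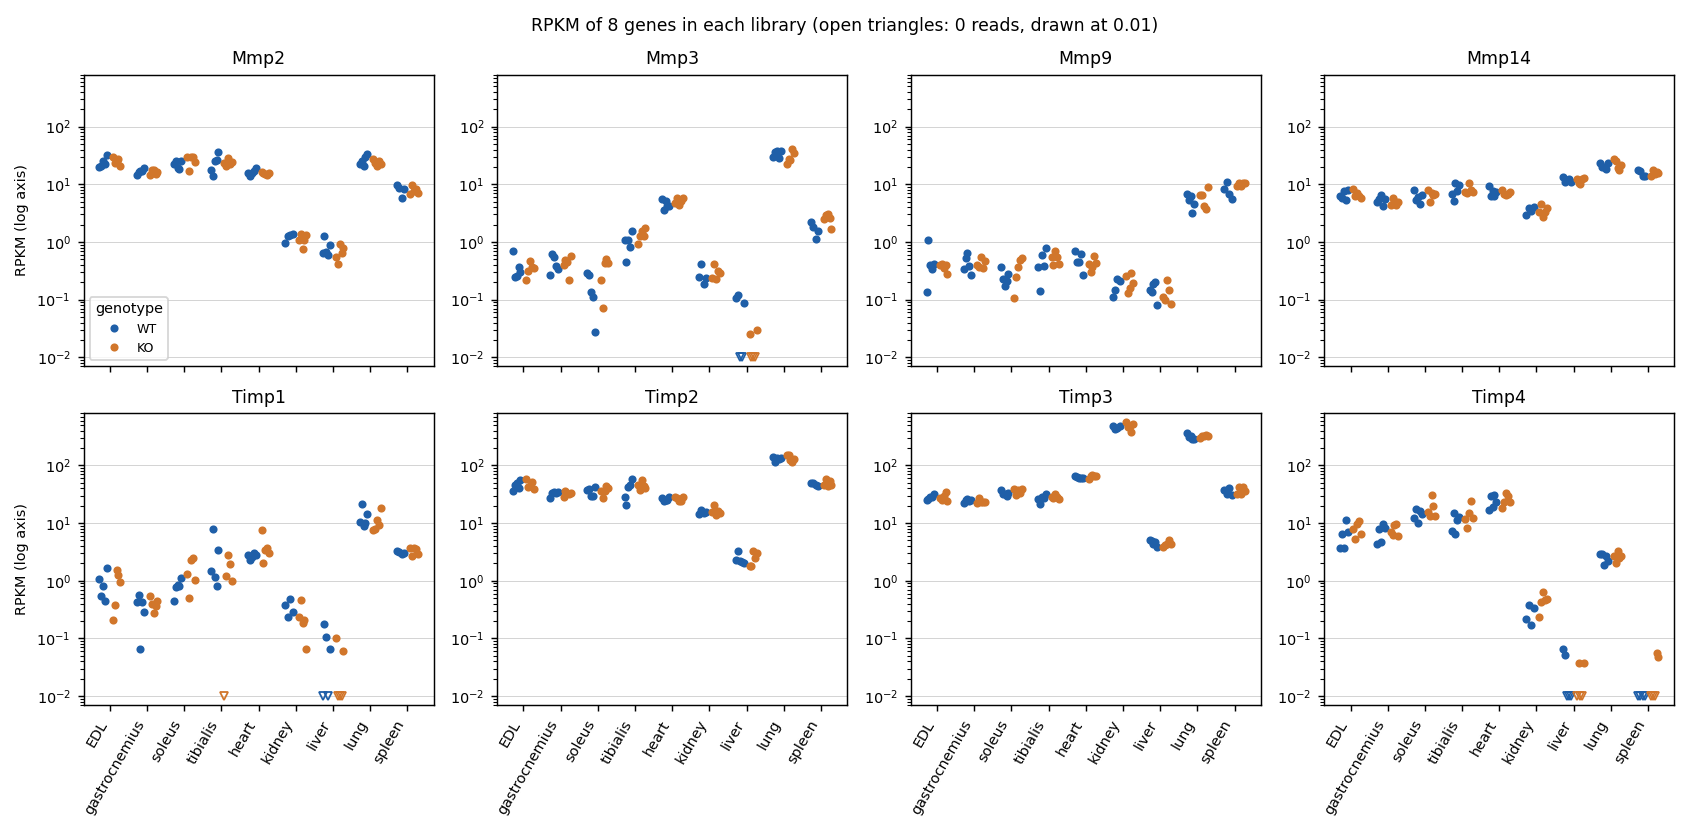
Level of each of the 8 genes in every library, in RPKM on a log axis, by tissue, with WT in blue and KO in orange and libraries with 0 reads as open triangles at the foot of the axis. Timp3 is highest in kidney (422 to 491 RPKM in WT), Mmp3 in lung (28.6 to 37.9 RPKM in WT) and Timp4 in heart (16.8 to 30.4 RPKM in WT), and the 2 genotypes overlap in each panel and tissue.

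The order of tissues depends in part on how libraries are scaled. Transcripts that are very abundant in a tissue lower the share of reads left for its other genes, and those shares are not given here. The TMM factors, which correct for such differences, were 2.02 to 2.14 in KO lung and 0.664 to 0.738 in KO gastrocnemius. With TMM-scaled levels the highest WT tissue stayed the same for Mmp3, Mmp9, Timp1, Timp2, Timp3 and Timp4. It became EDL in place of lung for Mmp2 and liver in place of lung for Mmp14.

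Ratios of genes within a library do not depend on that scaling, and they showed a different inhibitor and protease makeup in each organ. In WT kidney Timp3 made up 96.6% ± 0.445 of the summed Timp RPKM (SD, n = 4). It made up 67.9% ± 1.90 in lung and 54.0% ± 2.84 in heart (n = 5 each), while in the limb muscles it made up 34.5% to 39.8% and Timp2 42.5% to 56.3% on average. Timp4 added 20.6% ± 4.46 in heart, 16.7% ± 3.37 in soleus and 7.87% ± 3.69 in EDL. Timp1 was at most 4.06% on average in any WT tissue, that value being tibialis, where mouse 3793553 alone had 12.3%.

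Of the summed RPKM of the 4 proteases, Mmp2 made up 71.3% to 77.1% on average in the WT limb muscles and 56.7% ± 4.70 in heart. Mmp3 made up 39.2% ± 3.68 in lung and 15.9% ± 1.77 in heart, and at most 5.20% on average elsewhere. Mmp14 made up 92.0% ± 2.56 in liver and 68.3% ± 1.34 in kidney. Mmp9 reached 23.5% ± 4.20 in spleen.

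The summed Timp level exceeded the summed level of the 4 proteases in 8 of the 9 tissues. The ratio in WT mice was 91.9 ± 17.8 in kidney (n = 4), 5.38 ± 0.696 in lung, 4.02 ± 0.558 in heart and 2.50 to 2.93 in the limb muscles and spleen. Liver was the exception, with 0.546 ± 0.0798 (n = 5) and a highest library of 0.685. The ratio of Timp2 to Mmp2 in WT striated muscle was 1.61 ± 0.0604 in soleus, 1.62 ± 0.143 in heart, 1.63 ± 0.104 in tibialis, 1.92 ± 0.189 in EDL and 1.96 ± 0.143 in gastrocnemius. WT soleus, at 1.542 to 1.681, did not overlap with WT gastrocnemius, at 1.779 to 2.106, and in KO mice the means ran from 1.45 ± 0.232 in soleus to 2.005 ± 0.111 in gastrocnemius, again without overlap. The ratio was 12.8 ± 1.70 in WT kidney. The ratio of Timp2 to Mmp14 ran from 2.81 to 7.87 over single WT libraries of 8 tissues and was 0.203 ± 0.0557 in liver.

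**Figure D2:**
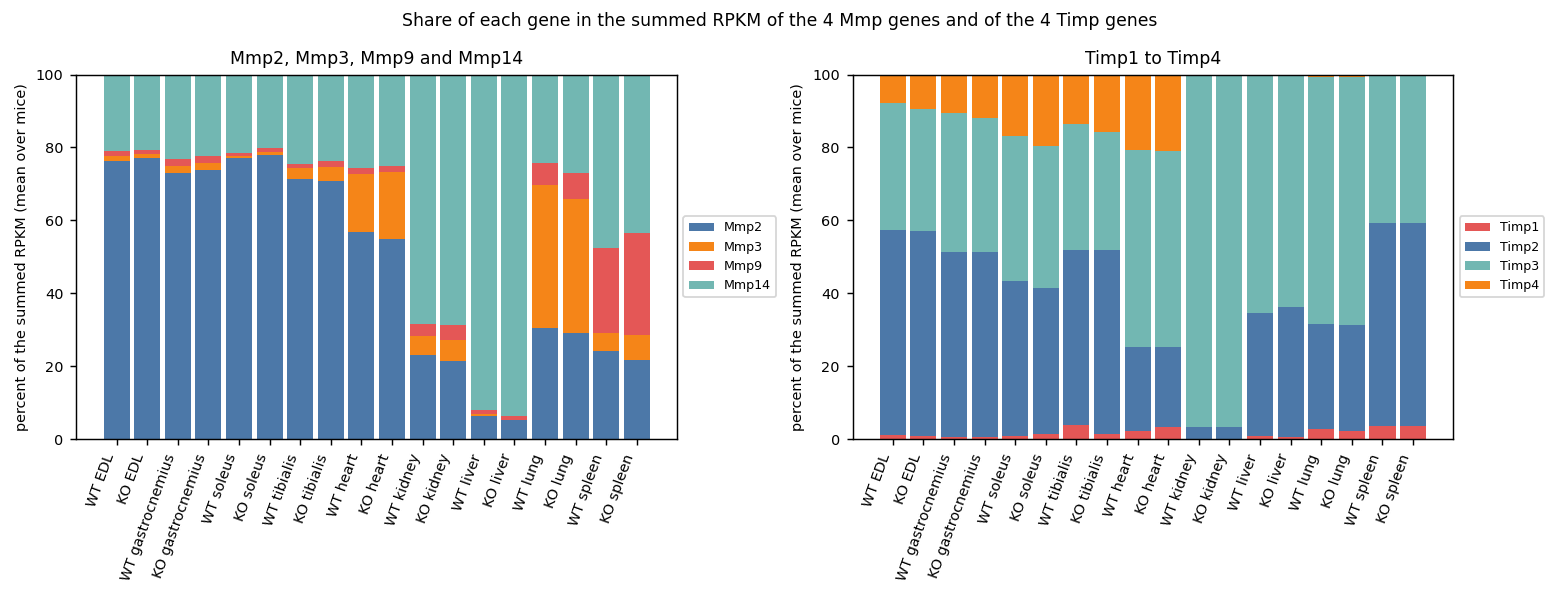
Stacked bars of the mean share, in percent, of each protease in the summed RPKM of Mmp2, Mmp3, Mmp9 and Mmp14 and of each inhibitor in the summed RPKM of Timp1 to Timp4, for each tissue and genotype. Timp3 fills nearly the whole inhibitor bar of kidney (96.6% in WT), Mmp14 the protease bar of liver (92.0% in WT), and Mmp2 most of that of the limb muscles (71.3% to 77.1% in WT).

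Each WT tissue was set against the mean of the other 8, for the 7 genes other than Timp4, which had no reads in WT spleen. Lung had all 7 genes higher and none lower, where 81.5% of all 16842 tested genes were called and 43% were higher. The log2 fold changes in lung ran from 0.32 for Mmp14 to 4.94 ± 0.13 (SE) for Mmp3, a 30.6-fold difference (edgeR adjusted p = 3.65e-32). Kidney had Timp3 higher, by 3.39 ± 0.06 (edgeR adjusted p = 1.79e-39), and the other 6 lower, with 74.5% of genes called. Liver had Mmp14 higher, by 1.05 ± 0.09 (edgeR adjusted p = 2.11e-13), and the other 6 lower, with 78.7% called. These calls are by edgeR's quasi-likelihood test with TMM factors, and most genes differ between organs, so a called member is no rarity there.

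In spleen Mmp9 was higher, by 3.14 ± 0.19 (edgeR adjusted p = 1.55e-18), and Mmp2 and Timp3 were lower, with 79.7% of genes called. Heart had Mmp2, Mmp3, Timp1 and Timp3 higher and none lower, with 68% called. Mmp2 and Timp2 were higher in EDL, soleus, gastrocnemius and tibialis, by 1.497 to 1.98 for Mmp2 and 0.76 to 1.26 for Timp2, where 68.2%, 65.4%, 69.5% and 64.6% of genes were called and 35.4%, 34.3%, 35.3% and 32.6% were higher. Mmp3 was lower in soleus (-2.10 ± 0.33, edgeR adjusted p = 4.91e-07) and EDL. Timp3 was lower in EDL, gastrocnemius and tibialis, Mmp9 in soleus and Timp1 in gastrocnemius. In tibialis, Mmp3, Mmp14 and Timp1 were higher as well. The Timp1 value there, 2.19 ± 0.31, fell to 1.33 ± 0.30 without mouse 3793553 (edgeR adjusted p of 4.37e-08 and 0.000263).

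Scaling by library totals in place of TMM moved the median of all genes in lung from 0.00 to 1.18 and in spleen from -0.06 to 0.94. It moved the share of called genes that were higher from 52.7% to 88.4% in lung, from 52% to 78.2% in spleen, from 54% to 69.6% in kidney, and from 46.2% to 31.2% in liver. In the limb muscles that share fell from between 50.5% and 52.4% to between 21.1% and 27.1%. With library totals the 7 genes were still all higher in lung, and the 1 higher and 6 lower of kidney and of liver had the same counts. Mmp14 in tibialis turned from 0.43 to -0.07 under that scaling, and other calls in limb muscle were lost: Timp2 in gastrocnemius went from 0.82 to 0.23 (edgeR adjusted p = 0.0706) and Mmp3 in tibialis from 0.85 to 0.33 (adjusted p = 0.181). Lower calls were gained for Mmp14 in EDL (-0.37), gastrocnemius (-0.69) and soleus (-0.47). The same held for Timp3 in soleus (-0.50) and Mmp3 in gastrocnemius (-0.94), all with edgeR adjusted p at most 0.00353. In spleen the lower call of Mmp2 was lost (-0.29, adjusted p = 0.0877), Timp3 was still lower, and Mmp3, Mmp14, Timp1 and Timp2 became higher beside Mmp9.

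Soleus, the slow limb muscle of the 4, differed from the mean of EDL, gastrocnemius and tibialis in 3 of the 8 genes in WT mice. Timp4 was higher by a log2 fold change of 0.75 ± 0.24 (SE; edgeR adjusted p = 0.0358), Timp3 higher by 0.22 ± 0.07 (adjusted p = 0.035) and Mmp3 lower by 1.78, at -1.78 ± 0.38 (adjusted p = 0.002). Of all 13172 tested genes 20.5% were called, 12.8% higher and 7.7% lower. The WT soleus libraries held 0.027, 0.110, 0.136, 0.270 and 0.294 RPKM of Mmp3, with at most 10 reads, and overlapped with EDL and gastrocnemius and not with tibialis. The Timp3 and Timp4 calls were each lost when any 1 of 4 mice was left out. Timp3 was at 0.16, 0.21, 0.23 and 0.23 (edgeR adjusted p of 0.251, 0.0777, 0.106 and 0.0896) without mice 3793543, 3793553, 3805657 and 3805673. Timp4 was at 0.67, 0.74, 0.71 and 0.82 (adjusted p of 0.115, 0.0947, 0.0538 and 0.0783) without 3793543, 3793553, 3805657 and 3817948.

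In KO mice the same comparison called 4 of the 8 genes, with 53.6% of 13149 genes called, 27.4% higher and 26.3% lower. Timp4 was higher by 0.78 ± 0.21 (edgeR adjusted p = 0.00395), Timp3 higher by 0.26 ± 0.06 (adjusted p = 0.00193), Mmp3 lower at -0.996 ± 0.27 (adjusted p = 0.00342) and Timp2 lower at -0.32 ± 0.09 (adjusted p = 0.00508). The KO soleus libraries held 13.3, 13.4, 15.6, 19.6 and 30.2 RPKM of Timp4. The highest came from mouse 3805666, and the range overlapped with that of KO tibialis. With library totals Timp2 was not past the threshold (-0.15, adjusted p = 0.225) and Mmp2 was higher by 0.28 (adjusted p = 0.0276). That scaling moved the share of called genes that were higher from 62.4% to 87.8% in WT and from 51% to 76.1% in KO.

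Marker lists moved with these differences, and their part in them was not tested. Of 8 endothelial genes, 7 were higher in WT soleus and 8 in KO soleus, and of 8 smooth muscle and pericyte genes 4 and 7 were higher. No fibroblast gene of 8 was called in WT soleus, and in KO soleus 1 was higher and 2 were lower. Of 7 tested adipocyte genes, 1 was higher in WT soleus and 2 in KO soleus, and none was lower. Their summed level was 402 to 1225 RPKM in KO soleus and 223 to 324 RPKM in KO EDL. In KO gastrocnemius it was 235 to 493 RPKM, which overlapped with KO soleus. The highest KO soleus value came from mouse 3805666, which also had the highest Timp4 of that group. In bulk tissue, more cells of a type and more RNA per cell cannot be told apart. Of the listed genes of the same pathway, few were called in WT soleus: Mmp17 higher (0.85) of 6 tested further Mmps, Adam15 higher (0.42) and Adam9 lower (-0.27) of 15 Adam and Adamts proteases, and Vtn, for the adhesive protein vitronectin, higher (0.35) of 20 matrix substrates. Bsg, an inducer of Mmps, was lower (-0.27, edgeR adjusted p = 0.00444) among 13 other inhibitors, plasmin system genes and activators. Their medians were 0.23, 0.11, -0.17 and -0.02 in that order of lists, beside 0.00 over all tested genes.

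Heart differed from the mean of the 4 limb muscles in 6 of the 8 genes in WT and 7 of the 8 in KO, where 80% of 13833 and 80.9% of 13793 tested genes were called. In WT 4 were higher and 2 lower, beside 40.8% and 39.2% of all genes, and in KO 4 were higher and 3 lower, beside 41.5% and 39.4%. Mmp3 was 9.001-fold higher in WT heart (log2 fold change 3.17 ± 0.19, edgeR adjusted p = 3.85e-14) and 8.08-fold higher in KO heart (3.01 ± 0.15, adjusted p = 1.81e-16). No heart library overlapped with a limb muscle library of its genotype for Mmp3 or for Timp3. The share of all genes whose ranges separate in this way is not given here. Timp4 was higher by 1.06 ± 0.22 in WT and 0.87 ± 0.19 in KO, Timp3 by 0.73 ± 0.06 and 0.78 ± 0.06, and Timp1 by 1.195 ± 0.36 and 1.77 ± 0.34 (edgeR adjusted p at most 0.00381). For Timp1 the WT heart range, 2.32 to 3.06 RPKM, lay inside that of WT tibialis.

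Mmp2 and Timp2 were both lower in heart than in limb muscle. Mmp2 was at -0.74 ± 0.15 in WT and -0.86 ± 0.09 in KO, and Timp2 at -0.88 ± 0.15 and -0.91 ± 0.09 (edgeR adjusted p at most 6.32e-05). Mmp14 was at -0.14 ± 0.13 in WT, with a 95% interval of -0.41 to 0.13, and at -0.20 ± 0.08 in KO, past the threshold (adjusted p = 0.0337). The KO call was lost without mouse 3793546, 3805666 or 3817943 (adjusted p of 0.0636, 0.135 and 0.0594), and with library totals the value was 0.12 (adjusted p = 0.232). Mmp9 was at 0.03 in WT, with an interval of -0.61 to 0.67. Scaling by library totals moved the median of all genes from 0.03 to 0.37 in WT heart and the share of called genes that were higher from 51% to 69.7%, and in KO from 51.3% to 69.3%.

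**Figure D3:**
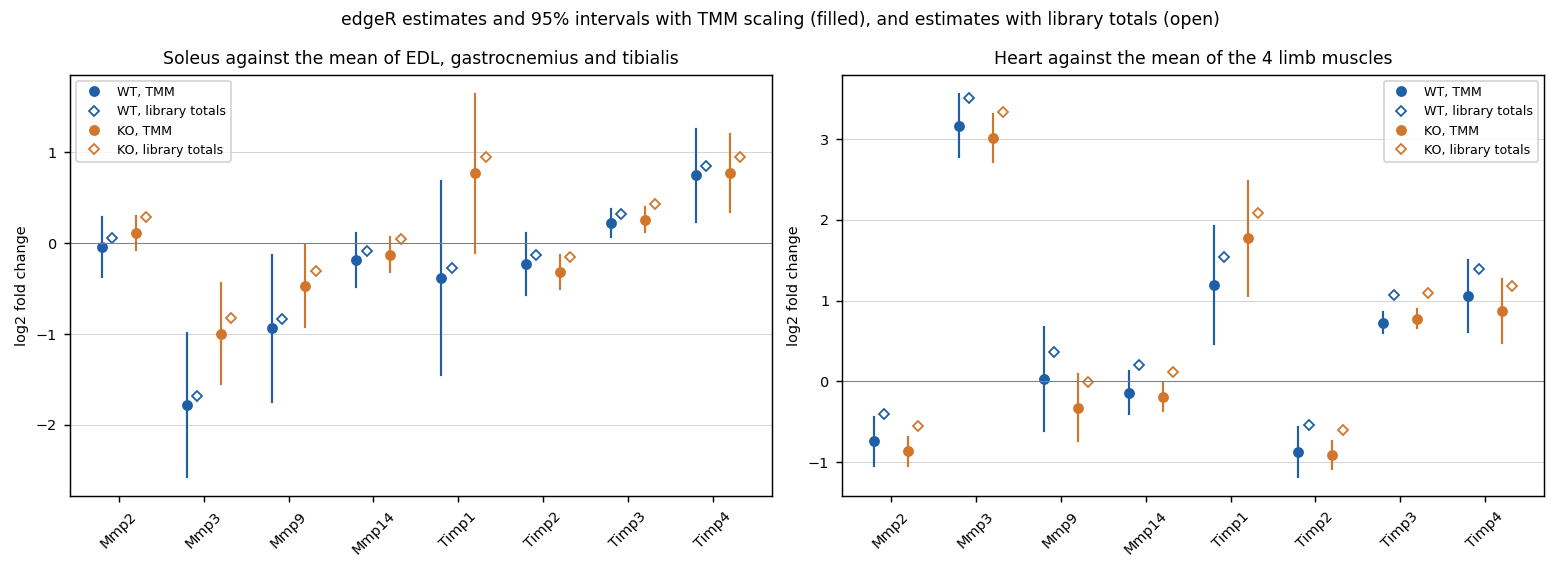
Log2 fold change of each gene in soleus against the mean of EDL, gastrocnemius and tibialis, and in heart against the mean of the 4 limb muscles, in WT and KO, with filled points for TMM scaling, bars for the 95% interval and open diamonds for scaling by library totals. Mmp3 is low in soleus (-1.78 in WT) and high in heart (3.17 in WT), Timp4 is high in both (0.75 and 1.06 in WT), and the heart diamonds lie above their points.

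The wider pathway followed no single direction in heart. Of the further Mmps, 6 of the 8 tested were higher in WT heart and none was lower, with a median of 1.16 beside 0.03 for all genes. Mmp15, a membrane-anchored relative of Mmp14, was higher by 1.85 ± 0.09 and Mmp17 by 2.34 ± 0.19 (edgeR adjusted p of 9.13e-16 and 1.84e-11). Of 14 other inhibitors, plasmin system genes and activators, 11 were higher, among them Bsg (0.75), and 2 were lower, namely Serpine2 (-1.98), a serine protease inhibitor, and Plau (-3.15), the urokinase plasminogen activator. Of 20 matrix substrates 6 were higher, such as Lamb1 (1.29) and Bgn (1.07), and 8 were lower, such as Tnc (-3.04) and Col1a2 (-2.68). Of 15 Adam and Adamts proteases 8 were higher and 2 lower, with Adam19 at 2.12 and Adam9 at -0.94.

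In heart the marker lists also differed, and their part in the values above was not tested. All 8 endothelial genes and all 8 smooth muscle genes were higher in both genotypes. Of the 8 tendon genes 7 were lower, with a median of -4.72 in WT, and of the 8 fibroblast genes 3 were higher and 1 was lower in each genotype. Of adipocyte genes 2 were higher and 4 lower of 8 tested in WT heart, and 1 higher and 4 lower of 7 in KO heart. Their summed level was 1165 to 1372 RPKM in WT heart, with Fabp4 higher by 1.56 ± 0.15, against 201 to 947 RPKM over the WT limb muscles.

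The genotype comparison found none of the 8 genes past the threshold in any of the 9 tissues, by edgeR or by DESeq2. In the limb muscles the share of tested genes that edgeR called was 0.00777% (EDL), 0.00792% (gastrocnemius), 0.00771% (soleus) and 0.0081% (tibialis), which is Cdh15 alone each time. It was 0% in heart, kidney, liver, lung and spleen. At an unadjusted p under 0.05 there were 2235 of 12965 tested genes in soleus and 590 of 12875 in EDL. The other 7 tissues had 118 to 478, the lowest being spleen with 118 of 13952. Among the 8 genes this held for 1 of 7 tested in soleus and 1 of 7 in spleen. DESeq2 called 146 genes in soleus and at most 4 in any other tissue. The ranges of KO and WT RPKM overlapped for every one of the 8 genes in every tissue, where among genes at a mean of 1 RPKM or more the ranges did not overlap for 3.57% in soleus, 1.06% in kidney and 0.24% to 0.513% elsewhere.

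The intervals show how closely each gene was measured. Of 72 pairs of gene and tissue 64 could be tested, and for 62 of these the 95% interval of the log2 fold change held 0. For 54 pairs the interval lay within 1 log2 unit of 0 on both sides, and for 37 within 0.5. Timp3 was the closest, with estimates of -0.06 to 0.08 over the 9 tissues and interval bounds that never went beyond -0.26 and 0.32. Mmp14 had estimates of -0.11 to 0.07, with all 9 intervals within 0.5 log2 units. Mmp2 ranged from -0.29 in liver to 0.18 in soleus and Timp2 from 0.00 in soleus to 0.21 in tibialis, each with 8 of 9 intervals within 0.5. The rest were measured less closely. Mmp3 ranged from -0.15 in lung to 0.54 in spleen, Mmp9 from -0.39 in EDL to 0.44 in soleus, and Timp1 from -1.04 in tibialis to 0.87 in soleus, with a widest interval for Timp1 of -2.77 to 0.69. The Timp1 value in tibialis, -1.04, rested on WT mouse 3793553 and was -0.12 without it, and the Mmp9 value in EDL was 0.18 without WT mouse 3793553. The estimates of Timp4 were above 0 in all 7 tissues tested, from 0.02 in lung to 0.63 in kidney, and those of Timp2 were at or above 0.00 in all 9. With 1 mouse left out at a time, 33 of the 64 estimates changed direction at least once, Timp4 in heart and lung and Timp2 in all tissues but tibialis among them. The tissues of one mouse are not independent, and no single one of these passed the threshold.

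Of the estimates with an unadjusted p under 0.05, that of Timp1 in soleus was the larger. The WT soleus libraries held 0.447, 0.780, 0.820, 0.8289 and 1.10 RPKM, from 6 to 20 reads, and the KO soleus libraries held 0.493, 1.02, 1.29, 2.33 and 2.53 RPKM, from 10 to 47 reads. Of the 5 KO libraries 3 lay above the highest WT library, and the lowest KO library lay near the lowest WT one. The log2 fold change was 0.87 ± 0.39 (SE), with a 95% interval of 0.02 to 1.73 and an edgeR adjusted p of 0.284. The KO mice with the highest Timp1, 3805666 and 3805676, also had the highest summed macrophage markers of the soleus libraries, 49.9 and 55.9 RPKM against 17.9 to 33.8 in WT, and the part of that in the result was not tested.

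Mmp3 in spleen was the other such estimate. WT spleen held 1.13, 1.56, 1.85 and 2.22 RPKM, and KO spleen held 1.67, 2.47, 2.64, 2.97 and 3.08 RPKM. Of the KO libraries 4 lay above the whole WT range and 1 within it. The log2 fold change was 0.54 ± 0.21 (interval 0.08 to 0.997), with an edgeR adjusted p of 1. In the same tissue Mmp9 was at 0.32 ± 0.15, with an interval of -0.01 to 0.66.

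In the remaining tissues the gene of smallest p was Timp4 in EDL (0.29 ± 0.32, interval -0.41 to 0.9999) and kidney (0.63 ± 0.33, interval -0.08 to 1.33). It was Mmp14 in gastrocnemius (-0.11 ± 0.10), Mmp3 in tibialis (0.52 ± 0.27, interval -0.07 to 1.11) and Timp1 in heart (0.57 ± 0.31, interval -0.10 to 1.25). The KO heart libraries held 2.04, 3.05, 3.45, 3.71 and 7.70 RPKM of Timp1, so that 3 libraries lay above the WT range of 2.32 to 3.06 and the highest, from mouse 3779417, stood well apart. Without it the estimate was 0.18. In liver and lung it was Mmp2, at -0.29 ± 0.24 and -0.15 ± 0.12. Reads were too few for a test of Mmp3 in soleus and liver, Mmp9 in liver, Timp1 in gastrocnemius, kidney and liver, and Timp4 in liver and spleen. In kidney mean Syn2 was above mean Timp4 in both genotypes, and the part of Syn2 reads in the Timp4 estimate there was not tested.

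With the counts of the 4 limb muscles summed for each mouse, 0.00703% of 14215 genes were called, which is Cdh15 alone, and none of the 8 genes (789 genes at an unadjusted p under 0.05, none of the 8, and 26 genes called by DESeq2, none of the 8). The smallest p was for Mmp3, at 0.32 ± 0.16 (edgeR adjusted p = 0.902). A further test asked if KO and WT were farther apart in soleus than on average in the other 3 limb muscles, and 0% of 13534 genes passed, with 2225 at an unadjusted p under 0.05. Timp1 had the smallest p of the 8, at 1.17 ± 0.69 (interval -0.22 to 2.57, edgeR adjusted p = 0.394). With the mouse as a block, since the 4 muscles come from the same animals, 591 genes passed and none of the 8 did, with Timp1 at 1.08 ± 0.59 (adjusted p = 0.281). None of the genes on the 5 further pathway lists was called between genotypes in any tissue. In soleus the smallest adjusted p on those lists was 0.238, among others for Adam17 (0.32 ± 0.08), which sheds membrane proteins and is blocked by Timp3, and for Bgn (0.46 ± 0.14), which encodes the matrix proteoglycan biglycan.

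**Figure D4:**
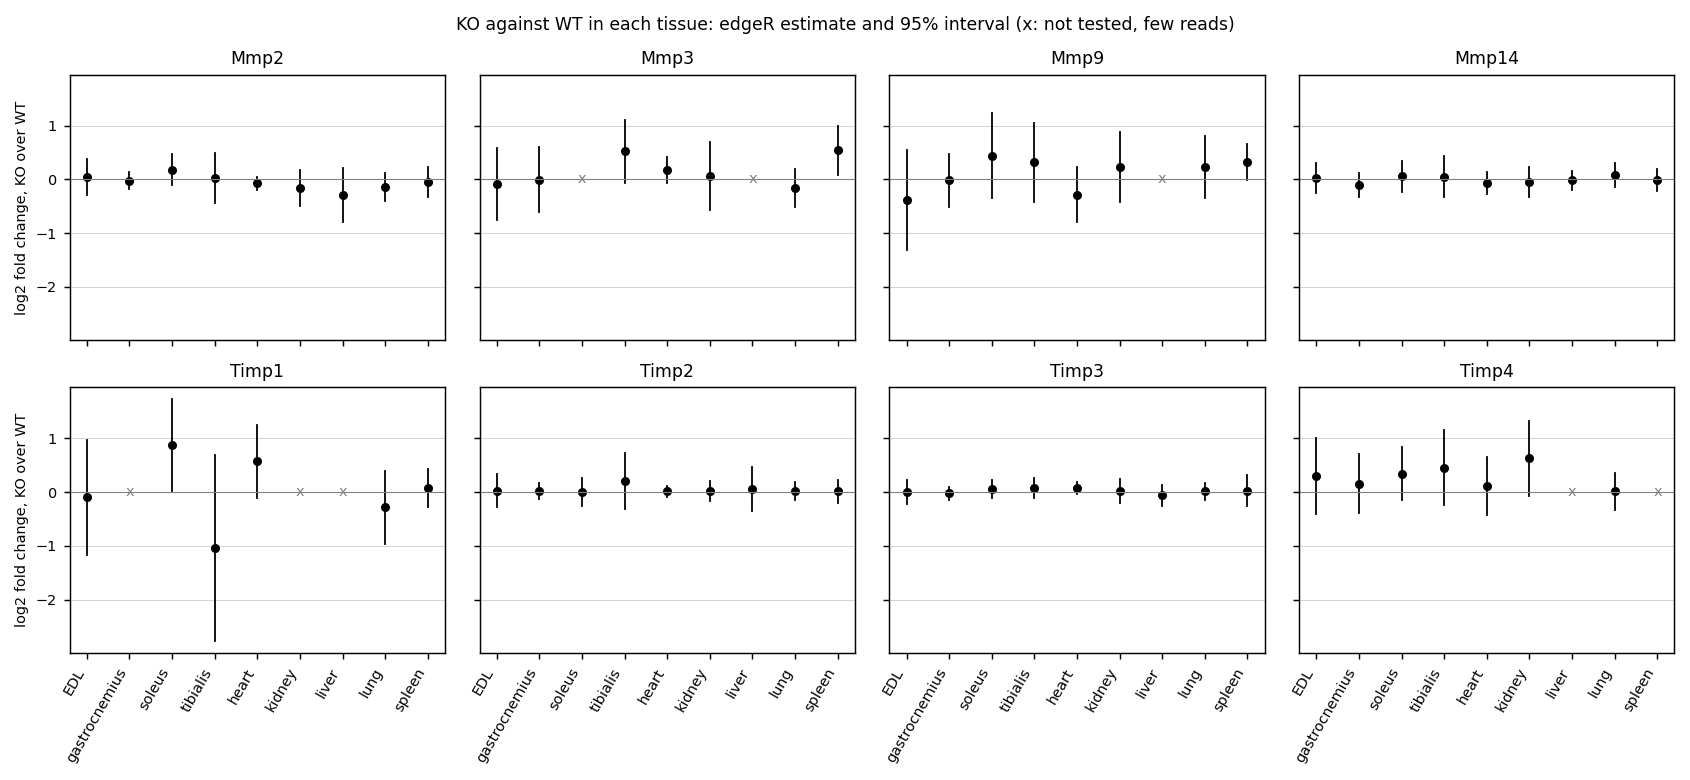
Log2 fold change of KO against WT for each of the 8 genes in each of the 9 tissues, with the 95% interval from edgeR as a bar and a cross where reads were too few for a test. Intervals for Timp3 and Mmp14 are short and lie around 0, those for Timp1 and Mmp9 are wide, and 62 of the 64 hold 0.

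Mice differed from each other within a group, and some of the 8 genes did so together. In WT tibialis, Mmp2 held 13.97, 17.8, 25.4, 26.1 and 36.0 RPKM, and Timp2 held 20.9, 28.5, 41.8, 46.6 and 58.6 RPKM in the same order of mice. The summed level of 8 fibroblast genes (Pdgfra, Dpt, Lum, Col1a1, Pi16, Dpep1, Clec3b and Cd34) followed with 129, 158, 242, 265 and 417 RPKM, again in that order. So mouse 3793553 was lowest and mouse 3817948 highest in all 3.

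Relations across mice were computed within a tissue on log2(RPKM + 0.1), after taking away the mean of the genotype, for 50 pairs of measures, with permutation tests over the mice that were 2-sided and adjusted over the 50. The 50 pairs were chosen after seeing the data, and the adjustment does not cover that choice. All values of a mouse come from 1 library and share its depth and scaling. In tibialis, Timp2 and Mmp2 had Pearson r = 0.985 (permutation p = 2e-05, the smallest that 100000 resamples can give, adjusted 0.001) and Spearman rho = 0.952 (permutation p = 0.00012, adjusted 0.004) over 10 mice. Without the 2 mice farthest from the median of Mmp2, r was 0.959. In EDL the relation of Timp2 and Mmp2 had r = 0.908 (permutation adjusted p = 0.0035) and rho = 0.903 (0.0075), and in gastrocnemius r = 0.770 (0.0145) and rho = 0.782 (0.0417), with r of 0.824 and 0.738 without the 2 farthest mice. In soleus r was 0.806 (permutation adjusted p = 0.0257), rho 0.648 (0.149) and r 0.533 without those 2. In liver it had r = 0.874 (permutation adjusted p = 0.00918), rho = 0.794 (0.0417) and r = 0.708 without the 2 farthest. In lung, where both genes are high, r was 0.116 (permutation adjusted p = 0.78) and rho 0.152 (0.725). Heart lay between, with r = 0.642 over 10 mice, as did kidney (0.688) and spleen (0.628) over 9 mice each.

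Against the summed fibroblast genes, Mmp2 and Timp2 had r of 0.961 and 0.949 in tibialis and 0.924 and 0.917 in EDL (permutation adjusted p at most 0.00671), with rho of 0.927, 0.927, 0.903 and 0.879 (adjusted p at most 0.0095). In soleus they had r of 0.870 and 0.946 (permutation adjusted p of 0.0112 and 0.0024), with rho of 0.733 and 0.927 and adjusted p of 0.0671 and 0.004. Without the 2 farthest mice these 6 values of r were 0.888, 0.876, 0.946, 0.906, 0.671 and 0.871. Other marker lists followed too: over the same 10 mice, and as a description, the summed tendon genes had r of 0.916 with Mmp2 and 0.943 with Timp2 in tibialis, 0.958 with Timp2 in EDL and 0.936 in soleus. The summed macrophage genes had r of 0.924 with Mmp2 in EDL and 0.824 in soleus. In gastrocnemius the relation rested on 2 mice: Timp2 had r = 0.85 with them (permutation adjusted p = 0.0706) and -0.407 without them, and rho was 0.285 (0.539). Timp3 and Mmp14 also followed the fibroblast genes in tibialis, with r of 0.851 and 0.775 (permutation adjusted p of 0.00918 and 0.0249) and rho of 0.794 and 0.830 (0.0417 and 0.0262), and with r of 0.525 and 0.612 without the 2 farthest mice. Timp1 had r = -0.015 (permutation adjusted p = 0.953) and rho = 0.042 (0.921) in tibialis, but r = 0.648 (0.103), rho = 0.527 (0.248) and r = 0.461 without the 2 farthest mice in soleus. Timp4 had r = 0.280 (permutation adjusted p = 0.53) and rho = 0.345 (0.481) in tibialis. Mmp3 had r = 0.713 in tibialis (permutation adjusted p = 0.06), and r was 0.139 without the 2 farthest mice. For Mmp9 and the fibroblast genes r was 0.840 in tibialis, 0.449 in soleus and 0.184 in EDL. In tibialis Mmp9 also had r = 0.977 with Timp3, 0.919 with Mmp14 and 0.893 with Mmp2. Its reads there were few, at 9 to 29 in WT and 14 to 37 in KO libraries.

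**Figure D5:**
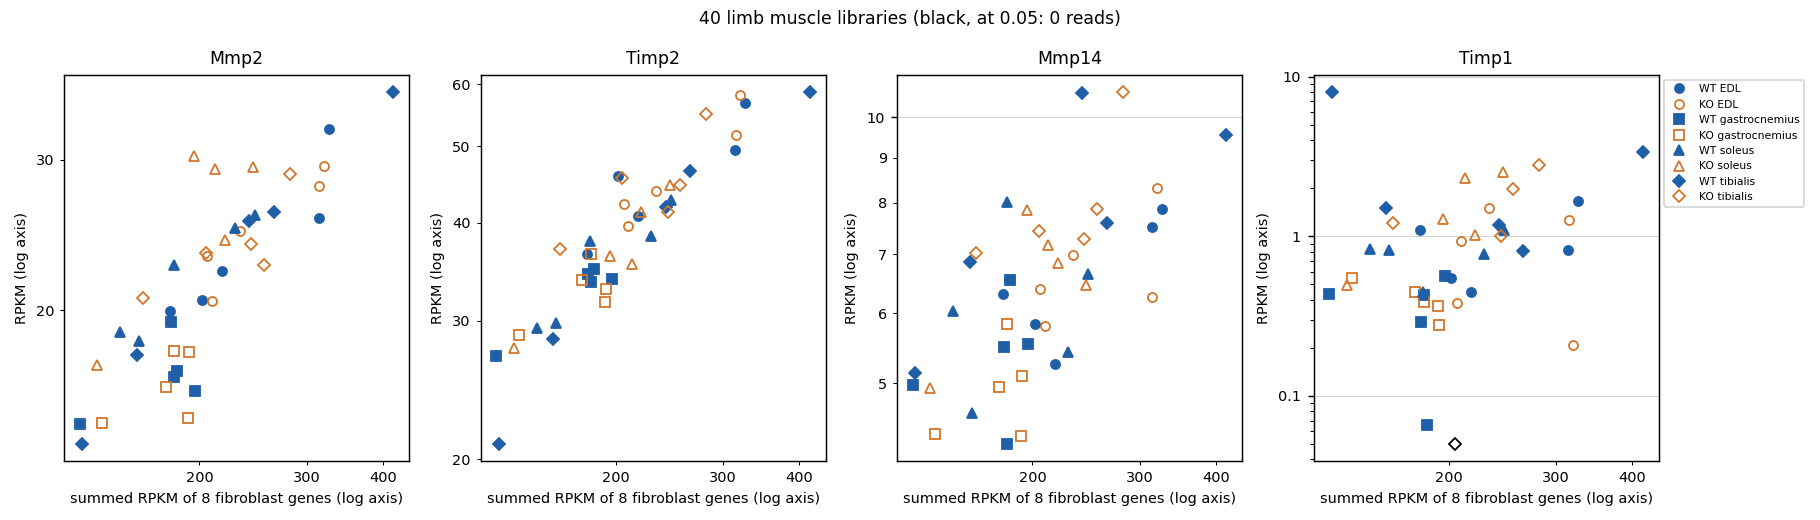
Level of Mmp2, Timp2, Mmp14 and Timp1 against the summed level of 8 fibroblast genes in each of the 40 limb muscle libraries, both in RPKM on log axes, with the KO tibialis library that had 0 Timp1 reads in black at the foot of its panel. Mmp2 and Timp2 rise along the axis from the lowest WT tibialis library (129 RPKM of fibroblast genes) to the highest (417 RPKM), and Timp1 is more scattered, with r of -0.015 in tibialis and 0.648 in soleus.

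Mmp9 went with neutrophil genes in lung, and in spleen by Pearson's r alone. In lung its relation to the summed level of 8 neutrophil genes (S100a8, S100a9, Ly6g, Mpo, Elane, Camp, Ngp and Ltf) had r = 0.852 (permutation adjusted p = 0.00918) and rho = 0.879 (0.0095) over 10 mice, and r = 0.713 without the 2 farthest. As a description, Mmp9 in lung also had r = -0.839 with the summed fibroblast genes, -0.720 with the adipocyte genes and 0.657 with the spleen lymphocyte genes. In spleen it had r = 0.769 (permutation adjusted p = 0.029) and rho = 0.750 (0.0802) over 9 mice, and r = 0.699 without the 2 farthest. Other pairs in spleen are given as a description: Mmp9 and the summed smooth muscle and pericyte genes had r = 0.821, and the neutrophil sum had r = 0.761 with Mmp14 and 0.693 with Timp2. The neutrophil sum was 169 to 396 RPKM in WT lung and 209 to 456 RPKM in WT spleen, against at most 13.1 RPKM in heart. In tibialis, mouse 3793543 of the WT and mouse 3805676 of the KO stood out with 23.8 and 26.9 RPKM of neutrophil genes and held 0.374 and 0.555 RPKM of Mmp9, each inside the range of its group. The relation in tibialis had r = -0.154 (permutation adjusted p = 0.665) and rho = -0.418 (0.39). For the same pair r was -0.480 in kidney, -0.253 in EDL, -0.210 in heart, 0.178 in liver and 0.332 in soleus.

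Over the 18 group means of log2(RPKM + 0.1), the members with the most alike patterns were Mmp3 and Timp1 (Pearson r = 0.919), followed by Mmp2 and Timp2 and by Timp1 and Timp2 (0.831 each). Of the 15759 genes at 1 RPKM or more in some group, the 3 most like Timp3 were Gas6 (0.993), Epb4.1l1 (0.992) and Glis2 (0.989). Those most like Mmp2 were Pdgfrl (0.989), Tgfb3 (0.986) and Arhgap20 (0.982), those most like Timp4 were Bag3 (0.977), Cdh13 (0.977) and Pcdh19 (0.976), and those most like Mmp3 were Pvr (0.971), 6030408B16Rik (0.969) and Alox5 (0.960). Mmp9 was closest to Asxl1 (0.987), Samhd1 (0.986) and Fndc7 (0.985), and Mmp14 to Spon2 (0.963), Ctsc (0.951) and Mrc1 (0.943). Timp1 was closest to Fkbp7 (0.966), Alox5 (0.961) and Klc1 (0.957), and Timp2 to Cnep1r1 (0.988), Ubtd2 (0.984) and Flrt2 (0.984). The 18 points share mice, libraries and scaling, each gene named was picked as the best of all tried, and the values are descriptions only.

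Further Mmps of the list were at levels like these in some organs. Mmp15 held a mean of 30.9 RPKM in WT lung and 12.4 in WT heart, Mmp19 19.0 in WT liver, and Mmp23 12.8 in WT spleen. So in liver Mmp19 was above Mmp14, at 11.9 RPKM. Mmp1a and Mmp1b had 0 reads in all 88 libraries, which allows up to 3 reads in each.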

How the data were processed

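Levels are the deposited RPKM values, which the authors made from their counts and which equal counts per kilobase and mega of counts (median ratio 0.9997 to 1.0000 in recomputation). Tests used the deposited expected counts, which the authors made on mm10 per the submitters' processing notes; the aligner and counter are not given in the sources used here. Expected counts were rounded to whole numbers (85.54% of values already were), and 22 marker sequences, 0 to 0.03228% of a library, were left out. Per the labels, RNA was polyadenylated and the library kit stranded. Each group came from the labels, with the mouse as the replicate.

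Each comparison was fitted by edgeR 4.0.16 (R 4.3.3) with TMM factors, the quasi-likelihood F test and robust dispersions (filterByExpr with a minimum count of 10 and total of 15), with Benjamini-Hochberg adjustment over all tested genes at 0.05. Standard errors were taken from the F statistic and 95% intervals from the t distribution. Genotype fits used 1 tissue each, and contrasts between tissues used the libraries of 1 genotype. Timp4 was left out of contrasts that hold WT spleen, since it had no reads there. A gene was named between genotypes if its unadjusted p was under 0.05, or else as the smallest p, and up to 4 called genes were eligible for naming per list. One called gene of a list is not reported here. The members and gene lists were chosen with earlier results of these data known. The fits were tested on simulated data.

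Alternatives were DESeq2 1.42.0 (size factors, Wald test), no filter, age in days as a term, mice of like age as a block, the mouse as a block, limma 3.58.1 on summed muscles and each mouse left out. Library totals and the 50 relations across mice were added after seeing the data. The tissues compared come from the same mice, which pairs their libraries: the mean correlation of deviations over 344 pairs of libraries from 1 mouse was 0.0424 (40 above 0.1), and -0.0106 otherwise. Promoters were read from RefSeq (GRCm38.p6).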

Additional observations from a re-analysis of the deposited data

Results flagged for a closer look

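In 143 groups of 4 or 5 mice, 3 had a library far from the rest for one of the 8 genes. Chance alone would give about 1 in 20 groups, which is more than were found. Mmp14 in KO tibialis was 10.7 RPKM in mouse 3805666, and the next library held 7.86. The same library had the highest summed fibroblast (281 RPKM) and macrophage (83.3 RPKM) markers of its group. Timp2 in WT gastrocnemius was 27.0 RPKM in mouse 3793543, below the next at 33.6. That library also had the lowest Mmp2 (14.8 RPKM) and the lowest summed fibroblast (127 RPKM, against 179.8 to 197 in the others), tendon (158 RPKM) and macrophage (16.9 RPKM) markers of its group. Timp2 in WT liver was 3.27 RPKM in mouse 3793553, above the next at 2.27. It also had the highest Mmp2 (1.25 RPKM) and the highest summed fibroblast (8.42 RPKM) and tendon (1.05 RPKM) markers of its group. The part of these markers in the 3 values was not tested.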

How the results depend on the processing

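Between genotypes, none of the 8 genes was called under any alternative run, and of the estimates with an unadjusted p under 0.05 or the smallest p of their comparison, 11 in all, none changed direction. Of all 64 estimates in single tissues, 33 changed direction without some 1 mouse. The number of genes called did: DESeq2's Wald test called 3 in EDL, 2 in gastrocnemius, 146 in soleus, 4 in kidney and 26 in the summed muscles, against 1, 1, 1, 0 and 1 by edgeR, and dropping the filter gave 1 in kidney. With the mouse as a replicate block, the soleus difference of differences had 591 genes past the threshold in place of 0, and the block changed no other call of the 8 genes. Leaving out each mouse gave 1 to 2 genes in EDL, gastrocnemius and soleus, 0 to 384 for the soleus difference of differences (384 without 3793543, 337 without 3793546), and, in WT soleus against the other limb muscles, 1498 to 2450 genes (2698 with all mice; 1498 without 3793543) and 1 to 2 of the 8 genes in place of 3. With library totals 6 of 7 genes were called in WT spleen in place of 3 (5 higher and 1 lower, with the lower Mmp2 call lost), Mmp14 was at 0.12 in KO heart in place of -0.20 and at -0.07044 in WT tibialis in place of 0.43. Mmp14 was also called lower in WT EDL, gastrocnemius and soleus under that scaling. Of 66 called tissue values, 60 were called alike with library totals, 65 with no filter and 66 with the block; Timp4 in WT soleus had an adjusted p of 0.0625 with no filter. Of 72 mean WT levels, 1 for each gene and tissue, 45 moved by over 1 SD under TMM scaling and 27 did not. Depth limits, among others, Mmp3 and Timp1 in soleus, with at most 47 reads, and Timp4 and Mmp9 in kidney, with at most 20 reads. It also limits the 8 pairs with too few reads for a test.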
